A study of Mus musculus with 7 samples.

Results

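Granule-gene-high cells were 1008 of the 24430 kept cells in 7 single-cell RNA libraries of mouse bone marrow. They were chosen by their transcripts: at least 5 UMIs of Elane, at least 20 of Elane, Prtn3 and Ctsg together, at least 1 of Ms4a3, and 0 of Camp, Ngp and Ltf, which are genes of later neutrophil granules. A UMI (unique molecular identifier) stands for 1 captured transcript, and a kept cell held at least 1000 UMIs, at least 500 genes and at most 10% mitochondrial UMIs. The levels of these 7 genes are therefore a description of the choice and support nothing. Mpo was not part of the choice.

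The libraries were made from LSK cells, which are marrow cells without lineage markers, sorted by FACS as carrying Sca-1 and cKit on their surface. All mice had a mixed 129S1/C57Bl/6 background. In 3 libraries the genotype label adds B4-/-, and the series describes these mice as full knockouts of B4galt1, while the other 4 libraries were wild type. They are called knockout 1 to 3 and wild-type 1 to 4 after the replicate numbers of their labels. Treatment, age, sex, the deleted part of the gene and the number of mice behind a library are not in the labels. Nothing says that replicates were separate animals, so p-values speak at most for the spread between these libraries, which may be technical.

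Granulocyte-monocyte progenitors are the marrow cells from which neutrophils and monocytes arise. On the way to neutrophils they begin to make the cargo of the primary (azurophil) granules, among it the serine proteases neutrophil elastase (Elane), proteinase 3 (Prtn3) and cathepsin G (Ctsg) and the enzyme myeloperoxidase (Mpo). Ms4a3 is a membrane protein of these progenitors, and the factor Irf8 is known for driving the monocyte branch. B4galt1 adds galactose to the sugar chains of glycoproteins, which many surface and granule proteins carry.

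Elane (ENSMUSG00000020125, chr10:79886247-79888215) and Prtn3 (ENSMUSG00000057729, chr10:79874476-79883174) are neighbours on the plus strand, and Ctsg (ENSMUSG00000040314, chr14:56099881-56102574) lies on the minus strand of another chromosome (gene coordinates here are those of GRCm38). The stretches before their RefSeq starts are shown because these genes define the cells. Each is 150 bases long, is taken from RefSeq's GRCm38.p6 table, and holds no base that GENCODE M21 puts in an exon of its gene. The Prtn3 stretch lies within the gene span given above, in an intron of a longer GENCODE transcript, while those of Elane and Ctsg lie outside the span of their gene. Capitals mark the letters GAGGAAGT, searched on both strands as letters that an ETS factor can bind.
Elane, chr10:79886097-79886246, plus strand: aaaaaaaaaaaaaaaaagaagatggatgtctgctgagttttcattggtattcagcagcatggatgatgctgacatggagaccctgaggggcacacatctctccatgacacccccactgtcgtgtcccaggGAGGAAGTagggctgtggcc
Prtn3, chr10:79879464-79879613, plus strand: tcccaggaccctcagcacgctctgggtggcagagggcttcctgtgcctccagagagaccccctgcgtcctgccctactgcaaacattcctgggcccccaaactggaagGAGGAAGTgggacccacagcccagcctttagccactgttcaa
Ctsg, chr14:56102575-56102724, minus strand: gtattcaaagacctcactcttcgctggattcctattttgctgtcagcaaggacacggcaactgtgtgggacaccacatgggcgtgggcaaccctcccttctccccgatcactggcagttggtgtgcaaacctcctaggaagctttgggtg
The RefSeq starts of Elane and Prtn3 are 6645 bases apart, and the capitals begin 85 and 95 bases before them. GAGGAAGT occurs within 150 bases before the start in 1.63% of the 32851 promoters of the table, and it is not in the Ctsg stretch. The letters AACGG (9.44% of promoters, searched for MYB) also occur before the starts of Elane and Prtn3, in bases that GENCODE counts as exon. TTGCNNAA (5.46%, searched for CEBP factors) occurs before none of these 3 genes. A match describes letters and is not a binding site.

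Libraries held 14970791 to 89747946 UMIs and 1172 to 8862 kept cells. Their barcodes fell into 2 sets of sequences, called list A (knockout 1 and 2, wild-type 1, 2 and 3) and list B (knockout 3 and wild-type 4), and 32.4 to 49.9% and 96.2 to 98.3% of the barcodes were kept in them. Granule-gene-high cells of knockout 1 and 2 and wild-type 1 and 2 held 1143 to 1574 CPM (a gene's UMIs in the summed cells, scaled to the same total in every library) of Xist, while those of knockout 3 and wild-type 3 and 4 held 0 and instead 51.8 to 83.1 CPM of the Y-linked Ddx3y. Knockout 3 and wild-type 4 shared 68 kept barcodes, other pairs 0 to 2, and no barcode of a granule-gene-high cell was shared. B4galt1 (ENSMUSG00000028413, chr4:40804602-40854005) stood at 51.3, 52.3 and 25.8 CPM in granule-gene-high cells under the knockout label and at 56.2, 87.6, 58.2 and 39.6 CPM under the wild-type label. The groups overlap, so this RNA does not separate the labels, and a 3′ tag outside the deleted part checks nothing.

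The gate found 459, 189 and 189 cells in knockout 1 to 3 and 27, 18, 6 and 120 in wild-type 1 to 4. As a share of kept cells, with the 95% exact binomial interval, this was 14.9% (13.7 to 16.3), 11% (9.52 to 12.5) and 2.76% (2.38 to 3.17) under the knockout label. Under the wild-type label it was 2.17% (1.44 to 3.14), 1.54% (0.913 to 2.42), 0.400% (0.147 to 0.869) and 1.35% (1.12 to 1.62). These intervals cover counting error only. The lowest of the knockout values exceeded the highest of the wild-type values, but the intervals of these 2 libraries (knockout 3 and wild-type 1) overlapped.

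The mean share was 9.55% ± 6.21 (SD, n = 3) against 1.37% ± 0.732 (SD, n = 4), a difference of 8.19 percentage points. The two-sided exact permutation test gave p = 0.0286, the smallest possible with 3 libraries against 4, and 0.114 after Benjamini-Hochberg adjustment over the 4 values tested this way. In list A the means were 12.9% and 1.37%, with an exact p of 0.1, the smallest possible with 2 libraries against 3. List B had 1 library per label, at 2.76% and 1.35%. Among libraries with Xist the means were 12.9% (n = 2) and 1.85% (n = 2), and among those with Y-linked transcripts 2.76% (n = 1) and 0.877% (n = 2). These are shares of sorted cells, and the sorting gate decides which cells could be counted.

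**Figure D1:**
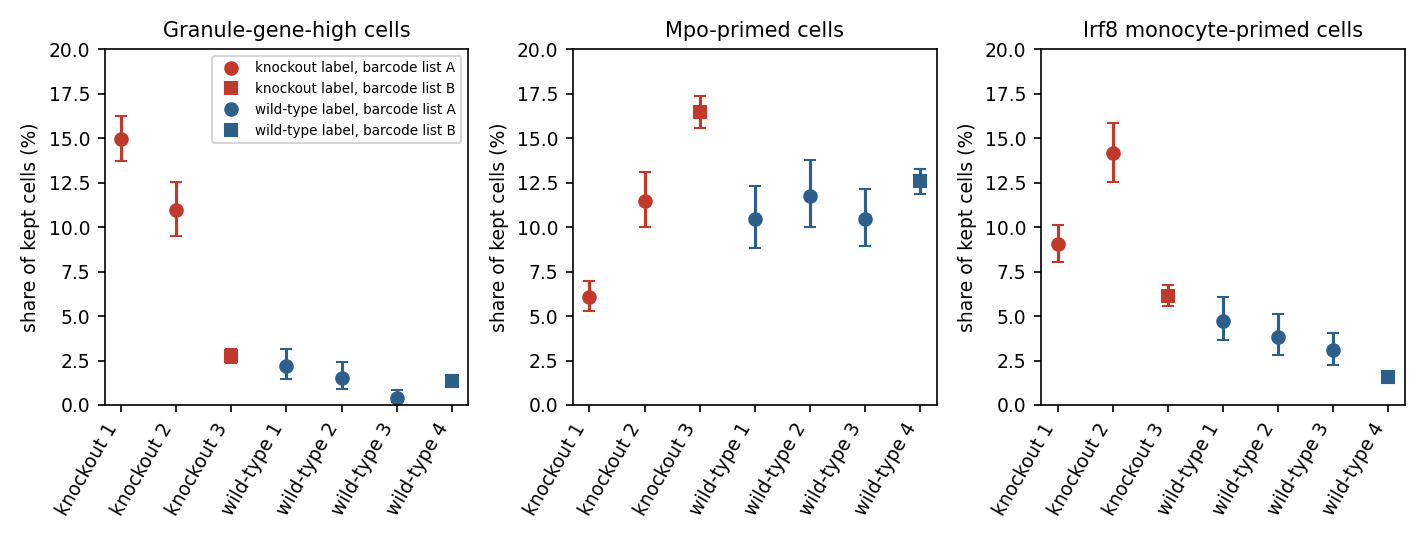
Share of kept cells (percent) in each library for granule-gene-high, Mpo-primed and Irf8 monocyte-primed cells, with 95% exact binomial intervals. Granule-gene-high cells took 14.9, 11 and 2.76% in the knockout-labelled libraries and at most 2.17% in the wild-type-labelled ones.

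Depth bears on a gate of fixed UMI numbers. The median granule-gene-high cell held 18267 to 28536 UMIs by library, against 8046 to 11084 in all kept cells. When each cell was thinned to 3000 UMIs before the gate, the shares were 11.8, 3.52 and 1.34% against 1.02, 0.745, 0.206 and 1.16%. The groups still did not overlap (difference 4.76 percentage points, exact permutation p = 0.0286). The nearest values were those of list B, with 91 of 6808 cells in knockout 3 and 101 of 8693 in wild-type 4. Counting intervals were not computed for the thinned shares. Just inside the Elane threshold, at 5 or 6 UMIs, lay 23, 22 and 10 cells in knockout 1 to 3 and 1, 0, 0 and 0 in wild-type 1 to 4. Just outside, at 3 or 4 UMIs with all else met, lay 44, 30 and 23 and 2, 3, 0 and 2.

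Late granule transcripts kept out the largest number of cells in knockout 1. There, 243 cells met all other conditions but held a UMI of Camp, Ngp or Ltf, and 165 of them held exactly 1. The other libraries had 2 to 14 such cells, which in wild-type 3 were 5 beside the 6 inside the gate. Without this demand the share went from 14.9% to 22.9% in knockout 1 and from 0.400% to 0.733% in wild-type 3. Stem-gated cells, which were other kept cells with at least 3 UMIs of the stem cell genes Hlf, Procr, Mecom and Fgd5, should lack these transcripts. Of those with under 20 UMIs of the 3 proteases, 10.4, 1.14 and 1.96% held a Camp, Ngp or Ltf UMI under the knockout label and 8.22, 5.27, 10.9 and 3.01% under the wild-type label. An Elane UMI was held by 24.8, 5.09 and 7.52% and by 1.62, 1.34, 0.563 and 10.6%. The median stem-gated cell held 6904 to 10419 UMIs. Elane stood at 0.493 to 33.3 CPM in those cells and at 1531 CPM or more in every sum of granule-gene-high cells. The part of this background in the gate was not tested.

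Elane was at 3173, 1531 and 3761 CPM in granule-gene-high cells of knockout 1 to 3 and at 2876, 2342, 3532 and 9554 CPM in wild-type 1 to 4. Wild-type 4 stands far above the rest. The same holds per cell, since its median cell had 89.6 Elane UMIs per 10000 UMIs and the medians of the other libraries were 12.1 to 36.4. Within wild-type 4 single cells ranged from 3.46 to 317 per 10000. Prtn3, at 2698 to 4981 CPM, Ctsg, at 2015 to 4573 CPM, and Ms4a3, at 553 to 1415 CPM, did not stand apart in that library. Granule-gene-high cells held 49.4 to 88.6% of all Elane UMIs of a library and 11.6 to 52.3% of its Prtn3 UMIs.

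Mpo (ENSMUSG00000009350, chr11:87793581-87804413) was present at 5 or more UMIs in all granule-gene-high cells except 1 cell of knockout 2. Its level was 5818, 5877 and 5940 CPM under the knockout label and 6753, 7459, 5851 and 6917 CPM under the wild-type label. Wild-type 3, the lowest of the wild-type values and within the knockout range, rests on 6 cells. The fitted log2 difference, without that library, was -0.28 (SE 0.18) and did not pass (edgeR adjusted p 1.00). Mpo-primed cells, which were other kept cells with at least 5 Mpo UMIs, no Irf8, Camp, Ngp or Ltf UMI and under 20 UMIs of the 3 proteases, held 658 to 1481 CPM of Mpo. Irf8 monocyte-primed cells, with at least 2 Irf8 UMIs and 2 of the monocyte genes Csf1r, Ly6c2, F13a1 and Ms4a6c, held 910 to 2575 CPM. High Mpo was not particular to the gate. Cells kept out by a Camp, Ngp or Ltf UMI alone had a median of 36.4 to 75.5 Mpo UMIs per 10000 by library. Granule-gene-high cells had 52.0 to 75.2.

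**Figure D2:**
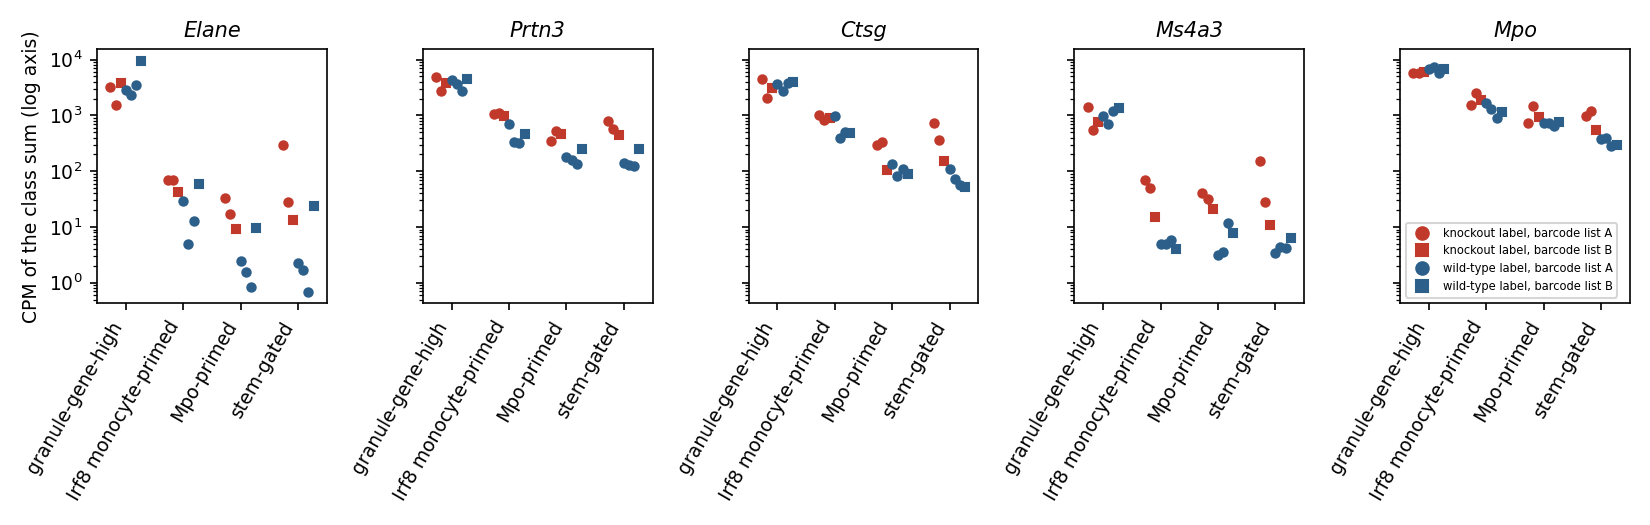
Level (CPM of the class sum, log axis) of Elane, Prtn3, Ctsg and Ms4a3, which chose the cells, and of Mpo, in 4 classes of cells, with 1 point per library. Mpo stood at 5818 to 7459 CPM in granule-gene-high cells and at 2575 CPM or less in the other classes drawn. Cells kept out of the gate by a Camp, Ngp or Ltf UMI alone are not drawn as a class.

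Mpo-primed cells took 6.09, 11.5 and 16.5% of kept cells under the knockout label and 10.5, 11.8, 10.5 and 12.6% under the wild-type label, with means of 11.3% ± 5.19 (SD, n = 3) and 11.3% ± 1.04 (SD, n = 4). Granule-gene-high cells per Mpo-primed cell numbered 2.45, 0.955 and 0.168 against 0.208, 0.130, 0.0382 and 0.108. Knockout 3 lay below wild-type 1 in this ratio, and the exact permutation test on the log2 scale gave p = 0.0571 (adjusted 0.114). Irf8 monocyte-primed cells took 9.05, 14.1 and 6.13% against 4.74, 3.84, 3.07 and 1.58%, again without overlap (exact permutation p = 0.0286, the smallest possible, outside the 4 adjusted values).

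Surface genes of the sort were lower in granule-gene-high cells than in stem-gated cells of the same library. Ly6a, which encodes Sca-1, was at 7.44, 8.48 and 9.53 CPM in knockout 1 to 3 and at 1.48, 0, 0 and 8.48 CPM in wild-type 1 to 4, and stem-gated cells held 18.8 to 62.9 CPM. At an equal depth of 3000 UMIs a Ly6a UMI was seen in 0% to 4.17% of granule-gene-high cells over 6 libraries and in 5.84% to 18.7% of stem-gated cells over 7. Kit, which encodes cKit, was at 70.3 to 202 CPM, against 154 to 336 CPM in stem-gated cells. It was seen at equal depth in 18.0% to 48.1% against 37.9% to 62.8%. Fcgr3, an Fc receptor gene that marks granulocyte-monocyte progenitors, was at 23.8 to 106 CPM and at 0.552 to 5.87 CPM in stem-gated cells. Cd34, a progenitor surface gene, was at 125 to 305 against 275 to 394 CPM. These are descriptions, since gates on RNA separate the cells, and 17.9% to 38.9% of granule-gene-high cells in the 6 libraries with at least 10 of them, and 1 of 6 in wild-type 3, themselves held 3 or more UMIs of the stem cell genes.

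Against Mpo-primed cells, the genes with the largest mean log2 ratio over 6 libraries (of CPM plus 1, 4182 genes ranked, gate genes and Irf8 left out) were Ly6c2, Hp, F13a1, Cebpe, Tifab, Trem3, Igsf6, Gda, Sgms2, Anxa3, Fcgr3, Apba1, Nrg1, Ly86 and Clec12a, in this order. Ly6c2, a surface gene of inflammatory monocytes, was at 498 against 2.92 CPM on average, a mean log2 ratio of 7.33 ± 1.09 (SD, n = 6). F13a1, a coagulation factor gene of monocytes, stood at 430 against 12.1 CPM, and Clec12a, a myeloid lectin receptor, at 329 against 23.2 CPM. Mpo-primed cells were chosen without Irf8, which bears on their monocyte genes. Hp (haptoglobin, kept in neutrophil granules) was at 191 against 5.40 CPM, and Cebpe, a factor of late granule genes, at 78.8 against 0.974 CPM. Lower were, among others, the lymphoid gene Dntt (9.96 against 117 CPM) and Ctla2a (59.9 against 555 CPM). The markers of the name, Mpo and Fcgr3 included, were thus present, beside the monocyte genes Ly6c2 and F13a1.

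A further split was made on Irf8, which the gate did not use. After thinning to 3000 UMIs, an Irf8 UMI was found in 32.5, 52.4 and 34.9% of granule-gene-high cells of knockout 1 to 3, in 33.3, 38.9 and 25.8% of those of wild-type 1, 2 and 4, and in 0 of 6 in wild-type 3. Without thinning it was found in 50.8% to 81.0% over the 6 libraries with at least 10 such cells, and in 14.1% to 27.7% of stem-gated cells. The labels overlapped, with knockout 2 highest and wild-type 4 lowest of the 6. Between 40% and 70.4% of the cells in these 6 libraries also met the Irf8 and monocyte gene demands of the monocyte-primed gate.

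Irf8-positive and Irf8-zero cells were compared within the 4 libraries that had 10 or more of each (knockout 1 to 3 and wild-type 4). The paired edgeR fit called 158 of 4621 genes (3.42%), 67 higher (1.45%) and 91 lower (1.97%) with Irf8. Since edgeR estimates the spread of a gene with help from all genes, very small p-values of this fit do not rest on the 4 libraries alone. F13a1 stood at 786 against 185 CPM in knockout 1, 1407 against 544 in knockout 2, 308 against 75.9 in knockout 3 and 398 against 56.2 in wild-type 4 (log2 difference 1.81, SE 0.11, edgeR adjusted p 2.00e-57). Of the monocyte list, 5 of 7 tested genes were called higher (Ly6c2, Ccr2, F13a1, Ms4a6c and Ly86) and 0 lower. The median log2 difference of that list was 0.82, against -0.0026 over all genes tested. The immune signalling adaptors Fcer1g (1.21) and Tyrobp (0.87), the galectin gene Lgals1 (0.85) and the factor Zeb2 (0.60) were also called higher.

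Primary granule genes showed the opposite order. Of 17 tested outside the gate, 8 were called lower with Irf8 and 1, the lysozyme gene Lyz2, higher, with a median of -0.25. Cd63, a granule membrane protein, stood at 58.6 against 358 CPM in knockout 1, 64.0 against 130 in knockout 2, 70.7 against 366 in knockout 3 and 194 against 622 in wild-type 4 (log2 difference -2.12, SE 0.16, edgeR adjusted p 1.08e-36). Nkg7 (-1.60), the granule proteoglycan Srgn (-0.94) and the protease Prss57 (-1.03) were called lower as well. Mpo was at 4912 against 6011 CPM in knockout 1, 5700 against 6211 in knockout 2, 5379 against 6081 in knockout 3 and 6183 against 7165 in wild-type 4 (log2 difference -0.25, SE 0.063, edgeR adjusted p 0.00567), a small difference with the same sign in all 4 libraries. Pglyrp1, a bactericidal protein of neutrophil granules, had a log2 difference of -2.44 and the basophil protease Mcpt8 one of -1.36. Of the basophil and mast cell list 2 genes were tested, Mcpt8 and Hdc, and 2 were called lower with Irf8. Cebpe did not pass the filter on low counts, and its values were 4.50 against 85.5 CPM in knockout 1, 10.1 against 14.8 in knockout 2, 15.2 against 94.9 in knockout 3 and 32.3 against 180 in wild-type 4.

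Of the galactosyltransferases, B4galt6 was called lower with Irf8 (log2 difference -1.11, SE 0.25, edgeR adjusted p 5.49e-04) and B4galt1 was not called (log2 difference -0.10, SE 0.28, edgeR adjusted p 0.953). Fut8, which adds the core fucose of N-glycans, was called lower (-0.79) and Selplg, the scaffold of P-selectin ligand, higher (0.89). Of 26 S phase genes 0 were called by edgeR in either direction, and of 27 G2/M genes 1, Ube2c, was called lower. The count of called genes was 70 without knockout 1, 33 with DESeq2 and 1283 of 9846 when cells were not thinned.

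**Figure D3:**
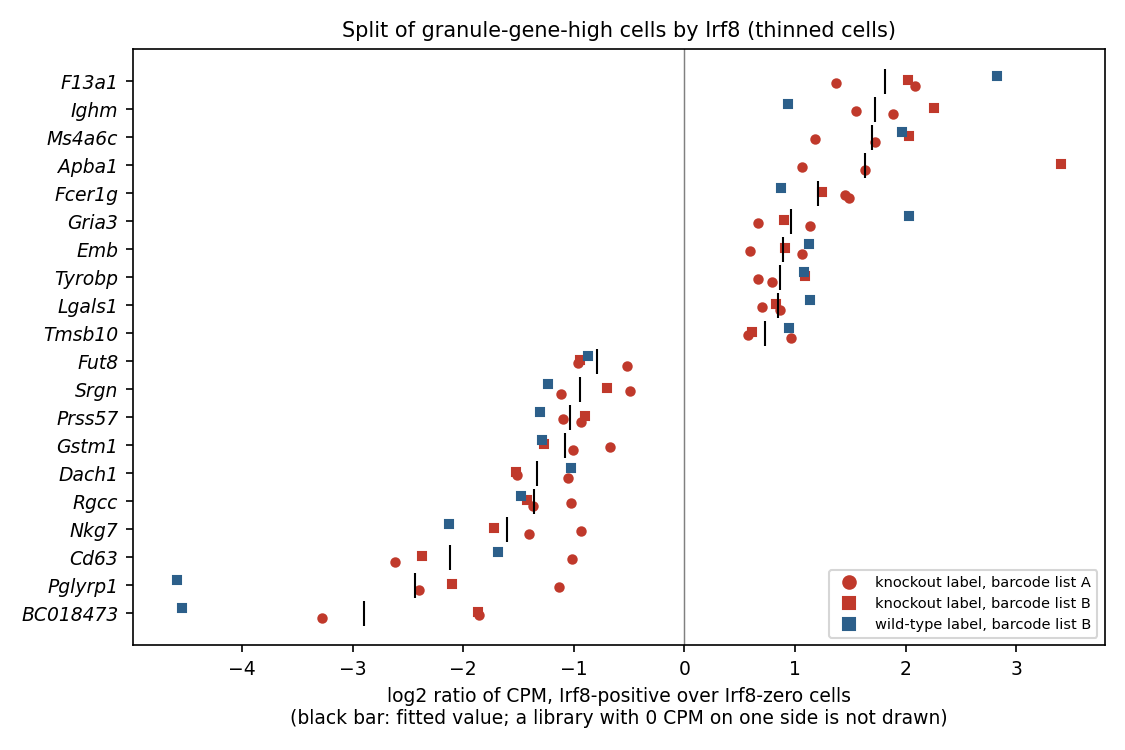
Log2 ratio of CPM between Irf8-positive and Irf8-zero granule-gene-high cells, thinned to 3000 UMIs, for the 20 genes with the smallest p by direction; each point is 1 of 4 libraries and the black bar is the fitted value. In each of the 20 genes all 4 libraries had the same sign, which the choice by p in these same libraries favours. Fitted values ran from 1.81 for F13a1 to -2.89 for BC018473.

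Mcpt8, a basophil protease gene, was present in some of the cells, a split made after the values had been seen. At least 2 UMIs of Mcpt8 and Prss34 together were held by 30.9, 11.6 and 46.0% of granule-gene-high cells of knockout 1 to 3 and by 7.41, 16.7, 33.3 and 24.2% of those of wild-type 1 to 4, which overlap. Of stem-gated cells 0.917% to 5.04% held as many, over the 6 libraries with at least 10 granule-gene-high cells. The split rests on Mcpt8, since Prss34 was at 0 in every library except knockout 3, where it was at 2.26 against 0.833 CPM in the remaining cells. The histidine decarboxylase gene Hdc was at 42.0 against 32.8, 44.0 against 31.6 and 85.3 against 41.6 CPM in knockout 1 to 3. In wild-type 4 it was at 151 against 98.9 CPM, so it was higher in the Mcpt8 cells of all 4. The few such cells of wild-type 1 to 3 gave 200 against 69.7, 38.3 against 129 and 362 against 39.4 CPM. Other basophil and mast cell genes did not all go with Mcpt8. Cpa3 was at 17.1 against 9.16, 0 against 3.44, 87.1 against 16.2 and 56.6 against 104 CPM in knockout 1 to 3 and wild-type 4, and Ms4a2 at 1.95 against 2.12, 2.20 against 2.50, 2.26 against 0.416 and 0 against 2.17 CPM. In these 4 libraries, the ones with at least 10 cells on both sides, Irf8 in the Mcpt8 cells was at 124 against 228 CPM in the remaining ones of knockout 1, 193 against 368 in knockout 2, 127 against 283 in knockout 3 and 121 against 202 in wild-type 4. The 2, 3 and 2 such cells of wild-type 1 to 3 held 133 against 272, 243 against 150 and 22.6 against 0 CPM, so the order was the other way in wild-type 2 and 3. Elane showed no common order, at 2892 against 3317, 1346 against 1558, 4146 against 3405 and 9932 against 9423 CPM in the 4 libraries. The 6 cells of wild-type 3 stood apart. They held 449 CPM of the mast cell protease gene Cpa3 and 291 CPM of the factor Gata2, where the other libraries held 3.01 to 91.7 and 10.2 to 21.7, and only 8.31 CPM of Irf8. That library was left out of the main fits between labels within granule-gene-high cells.

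Between the labels, the sums of granule-gene-high cells gave few calls. With the barcode list as a covariate, edgeR called 1 of 10376 genes (0.00964%), and 284 had an unadjusted p below 0.05. In the 6 libraries of this fit list B is also the set with Y-linked transcripts, so list and sex cannot be told apart. The called gene was Hdc (ENSMUSG00000027360, chr2:126593667-126619299), histidine decarboxylase, which makes histamine. It stood at 36.0, 33.1 and 62.6 CPM under the knockout label and at 78.4, 112 and 112 CPM in wild-type 1, 2 and 4 (log2 difference -1.21, SE 0.20, edgeR adjusted p 0.0317). The edgeR call was lost without knockout 2 (log2 difference -1.10, adjusted p 0.0855), without wild-type 1 (-1.27, adjusted p 0.0914), with high doublet scores removed (-1.19, adjusted p 0.0695), without the covariate (-1.20, adjusted p 1.00) and with thinned cells (-0.65, adjusted p 0.999). The log2 difference moved by over 1.5 times in thinned cells alone among these 5. Thinned cells were gated anew, which left 55 cells in knockout 2. Wild-type 2, with 8, dropped out of that fit. The count of called genes was 25 without knockout 1, 15 without knockout 3, 0 without wild-type 1, 12 without wild-type 2 and 10 without wild-type 4.

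Of the basophil and mast cell list 3 genes were tested, and Hdc was the 1 called. Cpa3 stood at 11.9, 3.01 and 50.2 against 50.3, 24.3 and 91.7 CPM (log2 difference -1.57, SE 0.67) and Mcpt8 at 55.9, 40.8 and 152 against 17.7, 31.6 and 148 CPM (0.49, SE 0.27), with overlap in both. The sign of Mcpt8 turned when wild-type 3, at 258 CPM, was included. It also turned when Camp, Ngp and Ltf were not demanded to be 0, which brought wild-type 3 into the fit with 11 cells. The summed level of that list was 79.6 to 268 CPM under the knockout label and 146 to 1222 CPM under the wild-type label, wild-type 3 included. Its part in the Hdc difference was not tested.

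Genes named for their small p that did not pass included Ccr2, of the monocyte list, and the interferon-linked Ifitm1 and Ifitm3. Gm47283, Clnk, Pim1, Gm15657 and Lgals3bp, given below, had smaller p than these. Ccr2, a chemokine receptor of monocytes, stood at 232, 327 and 234 against 69.5, 38.9 and 137 CPM in the libraries of the fit (log2 difference 1.65, SE 0.33, edgeR adjusted p 0.397). Ifitm1, an interferon-induced membrane protein, was at 552, 222 and 484 against 62.1, 80.3 and 152 CPM (2.15, SE 0.45, edgeR adjusted p 1.00), and Ifitm3 at 333, 300 and 373 against 177, 141 and 245 CPM (0.83, SE 0.21, edgeR adjusted p 0.397). In the 6 cells of wild-type 3, which the fit left out, Ifitm1 was at 316 CPM. Ifitm1 was called under 10 of 21 alternatives and Ccr2 under 8 of 21, with the sign kept in each. The 21 count the replicate block with and without the barcode list, which are the same fit here.

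The kinase Pim1 (0.94), the adaptor Clnk (1.43), the factor Pou2f2 (0.78), Lgals3bp (0.97), Serpina3g (0.92), Gm47283 (1.07) and Gm15657 (0.97) had positive log2 differences that did not pass, with edgeR adjusted p of 0.207 to 0.521. Negative ones that did not pass were those of Il11ra1 (-1.10), a receptor gene near B4galt1, the proteoglycan Gpc1 (-0.99), the carbonic anhydrase Car2 (-0.88), Eml5 (-1.01), Cep85l (-0.70), Lrrc1 (-0.91), Tspoap1 (-0.78), the kinase Camk1d (-0.73) and Exoc3l2 (-0.88). Il11ra1 stood at 17.6, 18.6 and 22.5 against 32.5, 43.8 and 49.3 CPM. Camk1d shows how far the barcode lists differed, at 9.75 and 13.7 CPM in list B and 259 to 668 CPM in list A.

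**Figure D4:**
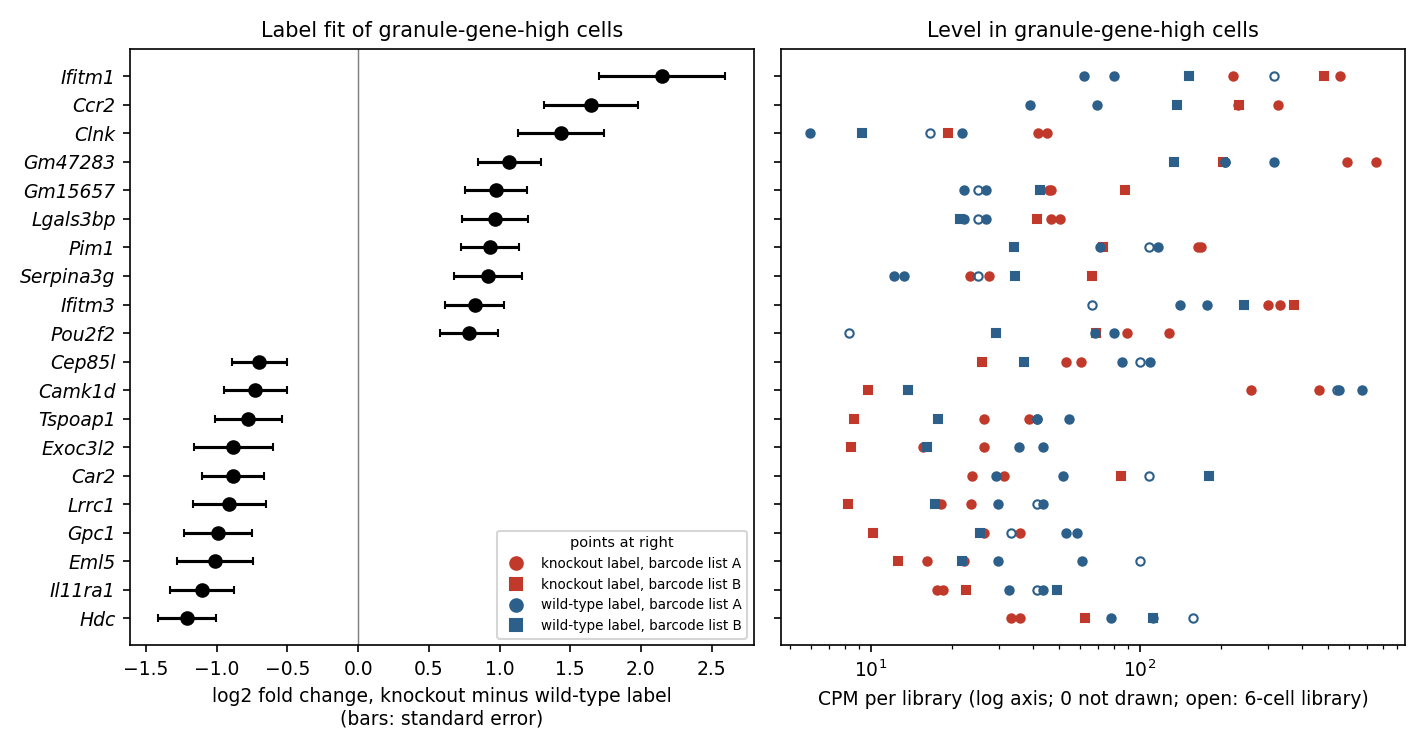
Genes named by smallest p in the label fit of granule-gene-high cells: log2 difference between the labels (positive where the knockout label is higher) with its standard error, and CPM in each library on a log axis, where open symbols are the 6-cell library that the fit left out. Hdc, at -1.21, is the 1 gene that passed.

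Gene lists are read against a median log2 difference of -0.0036 over all genes tested. Of 18 primary granule genes outside the gate 17 were tested, 0 were called by edgeR (1 at an unadjusted p below 0.05) and 13 had a negative difference (median -0.21). Examples are the glutathione reductase gene Gsr (-0.48, SE 0.22), the protease inhibitor Slpi (-0.36, SE 0.21) and Mpo. Their summed level was 14174 to 17601 CPM under the knockout label and 17786 to 20043 CPM under the wild-type label. Of 16 late neutrophil genes 7 were tested with 0 called (median -0.46). Among them Cebpe was at 60.5, 19.4 and 77.3 against 81.3, 97.3 and 137 CPM in the libraries of the fit (-0.98, SE 0.52). The monocyte list had 13 of 16 tested, 0 called and a median of 0.23, with 8 positive and 5 negative differences. Csf1r, a macrophage growth factor receptor, was at 29.8, 48.7 and 30.8 against 22.2, 19.5 and 24.6 CPM (0.57, SE 0.25).

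The 20 myeloid transcription factors gave 0 calls and a median of -0.12. Irf8 (ENSMUSG00000041515, chr8:120736358-120756694) was among them at 192, 346 and 208 against 263, 168 and 181 CPM (0.23, SE 0.22), with a sign that turned in thinned cells. Growth factor receptors and surface genes gave 0 calls among 19 tested and a median of 0.16. Of genes of ER chaperones and secretion 22 were tested with 0 called and a median of -0.10. Of 17 interferon response genes in the files 11 were tested with 0 called and a median of 0.18.

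Genes of other cell types were at low levels or few were tested. Of the stem cell list 6 of 12 were tested (median -0.064), of the lymphoid list 4 of 12 (0.27), of the megakaryocyte and erythroid list 4 of 13 (-0.67) and of the dendritic list 2 of 8 (-0.20), with 0 called in each. Of B cell genes 1 of 4 and of macrophage genes 1 of 6 were tested, also with 0 called. No gene of the eosinophil, T and NK cell, or endothelial and stromal lists passed the filter on low counts. Cd3e, Cd3g and Gzma were at 0 in granule-gene-high cells of every library. Summed T and NK genes reached at most 0.369 CPM and endothelial and stromal genes at most 7.67 CPM.

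Among glycosylation genes, 6 of the 7 beta-1,4-galactosyltransferases were tested and 0 called, with a median of -0.12. B4galt1 had a log2 difference of -0.52 (SE 0.21, edgeR adjusted p 1.00), whose sign turned in thinned cells. B4galt5 had one of 0.69 (SE 0.34), and B4galt4 one of 0.31 (SE 0.28). B4galt6 was at 124, 55.6 and 25.3 CPM against 82.8, 80.3, 141 and 44.4 CPM, and the signs of B4galt3 and B4galt6 turned under several alternatives. B4galt2 was at 0 to 1.48 CPM and untested. Of 21 enzymes of N-glycan branching, fucose and sialic acid 18 were tested (median 0.028), and all 16 adhesion and homing glycoproteins (median -0.0014), with 0 called in both. Muc13, a membrane mucin, was at 51.5, 77.5 and 143 CPM against 54.7, 58.4, 66.5 and 59.0 CPM (0.62, SE 0.23, edgeR adjusted p 1.00). Of 7 genes near B4galt1 that earlier results of these data named, 3 were tested and 0 called.

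Summed cell cycle RNA overlapped between the labels in these cells. The 30 S phase genes summed to 3251, 3476 and 2660 CPM under the knockout label and to 3614, 3162 and 2698 CPM in wild-type 1, 2 and 4, with means of 3129 ± 421 and 3158 ± 458 (SD, n = 3 each, exact permutation p = 0.9, adjusted 0.9). The 30 G2/M genes summed to 5366 ± 419 and 4865 ± 896 CPM (SD, n = 3 each, exact permutation p = 0.5, adjusted 0.667), and 27 of the 30 had a positive log2 difference, with 0 called. The smallest p that 3 against 3 libraries allow is 0.1, so these sums could not have passed. The G2/M difference of 501 CPM was 61.1 without wild-type 4, 319 without knockout 2 and 956 without wild-type 1. The S phase difference of -28.5 CPM turned positive without knockout 3 (206) and without wild-type 1 (200).

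Granule-gene-high cells took 29.0, 21.2 and 5.77% of the UMIs of kept cells in knockout 1 to 3 and 5.23, 3.24, 0.696 and 2.77% in wild-type 1 to 4, so sums over all kept cells were compared with and without them. In such sums fewer cells of a type and less RNA per cell cannot be told apart. Over all kept cells edgeR called 162 of 14608 genes (1.11%), and without the granule-gene-high cells 116 of 14669 (0.791%). Of these, 113 were shared, which is 69.8% of the first list and 97.4% of the second. The second count was 50, 40 and 22 without wild-type 1, 2 and 3, 0 without the covariate (459 at an unadjusted p below 0.05) and 472 with DESeq2.

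Mpo had a log2 difference of 1.82 (SE 0.34, edgeR adjusted p 0.0414) with the granule-gene-high cells and of 1.71 (SE 0.26, edgeR adjusted p 0.0259) without them, although they held 10.8 to 53.2% of the Mpo UMIs of a library. Csf1r (1.85 and 1.75), Slpi (1.70 and 1.69), Rab44 (1.75 and 1.77), Slc4a8 (2.04 and 2.00) and Irf8 (1.14 and 1.06) were also called in both. Within granule-gene-high cells alone none of these 6 genes was called by edgeR, with log2 differences of -0.28, 0.57, -0.36, -0.074, 1.00 and 0.23 in the same order. The sums without granule-gene-high cells still held cells near the gate. Stem-gated cells with 20 or more UMIs of the 3 proteases numbered 250, 142 and 281 in knockout 1 to 3. In wild-type 1 to 4 they numbered 17, 13, 12 and 59. The 243 cells of knockout 1 kept out by a Camp, Ngp or Ltf UMI alone were in these sums too. The part of such cells in the differences was not tested.

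**Figure D5:**
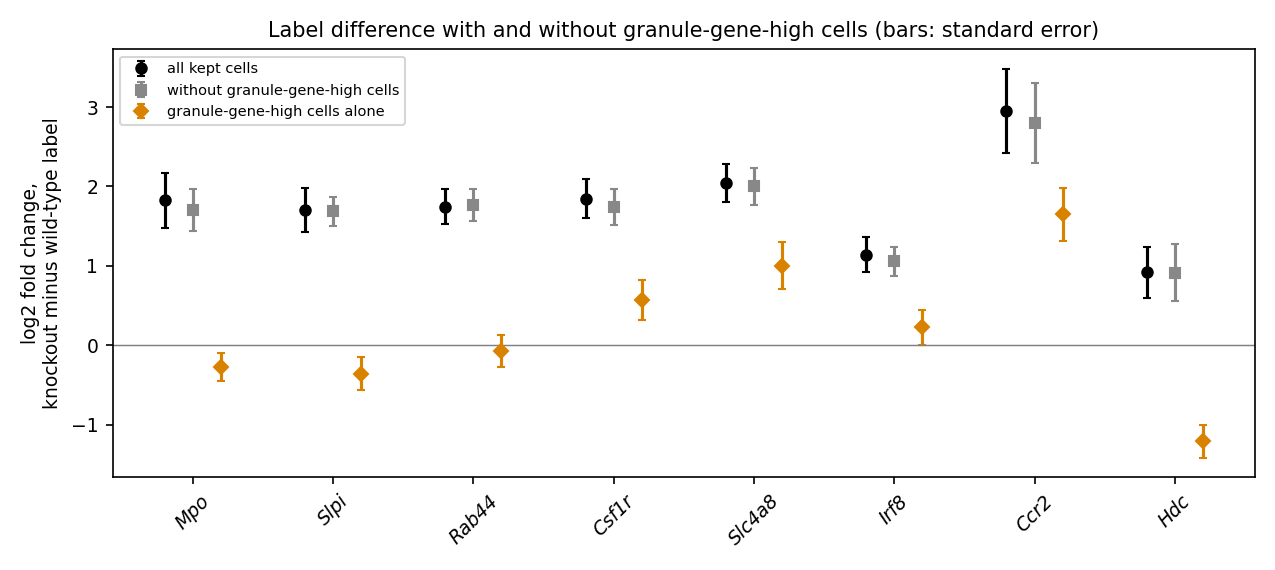
Log2 difference between the labels (positive where the knockout label is higher) with its standard error for 8 genes in sums over all kept cells, over kept cells without the granule-gene-high cells, and over these cells alone. Mpo stands at 1.82, 1.71 and -0.28 in the 3 sums.

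The label difference within granule-gene-high cells was also tested against that within Mpo-primed cells of the same libraries. The interaction fit called 35 of 11220 genes (0.312%), 5 (0.0446%) with a more positive difference in granule-gene-high cells and 30 (0.267%) with a more negative one. Rab44, which encodes a granule-linked GTPase, was at 134, 208 and 143 against 213, 190 and 113 CPM in granule-gene-high cells and at 108, 154 and 45 against 63.9, 41.6 and 15.5 CPM in Mpo-primed ones (-1.46, SE 0.17, edgeR adjusted p 4.31e-07). It overlapped between labels in the first class and also, at knockout 3, in the second. Mcpt8 was at 55.9, 40.8 and 152 against 17.7, 31.6 and 148 CPM and, in Mpo-primed cells, at 20.7, 17.8 and 92.0 against 5.58, 5.64 and 17.9 CPM (-2.02, SE 0.26).

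Cpa3 (-2.06, SE 0.24), the lipid carrier gene Apoe (-1.46, SE 0.21) and Hp (-2.82, SE 0.40) were also called with a more negative difference. Hp was at 1.24, 0.513 and 0.617 CPM in Mpo-primed cells of wild-type 1, 2 and 4, too low to be tested in that class alone. Ifitm1 (1.06, SE 0.17), the cytokine receptor Flt3 (1.06, SE 0.21), Dntt (1.44, SE 0.34), Camk2d (1.05, SE 0.25) and Ppp1r9a (1.08, SE 0.26) had the opposite sign. Dntt was at 1.18, 4.11 and 30.1 against 2.96, 0 and 21.4 CPM in granule-gene-high cells. In wild-type 1 and 2 this was 2 and 0 UMIs. Flt3 was at 37.9, 57.5 and 82.7 against 28.1, 24.3 and 56.9 CPM in granule-gene-high cells and at 182, 168 and 227 against 199, 274 and 325 CPM in Mpo-primed ones. The count was 81 without knockout 1, 17 without knockout 3, 15 without wild-type 1, 19 without wild-type 4 and 6 without the covariate.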

How the data were processed

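Gene-by-cell UMI counts of 7 libraries were used as deposited. Per the file headers and the submitters' processing notes, the authors made these counts with Cell Ranger 7.0.0, and the notes also name Seurat 4.4.0 and the build mm10. The labels name a 10X 3′ kit, and the strand setting is not given in the sources used here. The files list 32285 genes, and libraries held 14970791 to 89747946 UMIs.

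Cells were kept, gated and summed per library and class, and CPM is the share of the class sum. The main fits used edgeR 4.0.16 (quasi-likelihood, TMM, filterByExpr, Benjamini-Hochberg, threshold 0.05) in R 4.3.3, with the barcode list as covariate, or with the library as block within libraries. Fits within granule-gene-high cells took libraries with at least 10 of them, which left out wild-type 3 with 6. Gate genes were described only: they stayed in the models but enter no count of calls, and no test of theirs is reported. Shares and cell cycle sums had two-sided exact permutation tests. Doublets were not removed: Scrublet marked under 0.5% of cells in each library and thus did not work, and an alternative removed the highest scores (0.8% per 1000 barcodes). Classes were rebuilt from transcripts, with no annotation of cells used.

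The cells, gene lists and tests were chosen with earlier results of these data known. Genes named are those of the gate, those earlier results name, called genes, genes of smallest p by direction and list, and extremes of the ratio to Mpo-primed cells. The basophil split was added after the values were seen. On data simulated for the fit between labels in granule-gene-high cells (10380 genes, 200 changed), 83% of genes changed by 1 on the log2 scale and 100% of those changed by 2 were recovered, with 9 false calls. The changed genes were drawn from those of higher level, all genes had the same dispersion (0.0309), and no barcode list effect was simulated. These rates therefore do not cover genes of low level or of wider spread between libraries. Alternatives were other gates and cell filters, thinning, DESeq2 1.42.0, no covariate, no gene filter, a replicate block, list A alone and leaving out each library. One gene that the naming rule selects is not reported here.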

Additional observations from a re-analysis of the deposited data

Results flagged for a closer look

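Among the 18 values tested for a library far from the others of its label, 1 stood out, where chance gives about 1 in 20. B4galt2 reached 1.48 CPM in granule-gene-high cells of wild-type 1, which is 1 UMI, and was at 0 in the other 3 wild-type libraries.

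The label difference in granule-gene-high cells differed from that in Mpo-primed cells by the edgeR interaction test for 10 named genes. The log2 difference of differences was 1.06 for Ifitm1, 1.06 for Flt3, 1.05 for Camk2d, 1.44 for Dntt and 1.08 for Ppp1r9a. Dntt had 2 and 0 UMIs in granule-gene-high cells of wild-type 1 and 2. It was -2.06 for Cpa3, -1.46 for Rab44, -2.02 for Mcpt8, -2.82 for Hp and -1.46 for Apoe.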

How the results depend on the processing

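The share difference kept its sign and did not overlap under any alternative run. In list A alone it was 11.6 points (exact permutation p = 0.1), and with 1 library left out it was 5.49 (without knockout 1) to 11.6 points (without knockout 3), with exact permutation p of 0.0667 or 0.1, the smallest those splits allow. A mitochondrial limit of 20% and the inclusion of wild-type 3 were chosen after seeing the data.

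The count of genes called between labels in granule-gene-high cells was 2 with a looser gate, 0 with high doublet scores removed (270 at an unadjusted p below 0.05 in edgeR), 0 without the covariate (62), 4 with DESeq2, 20 without the gene filter and 5 in list A. It was 0 (300 unadjusted) to 25 with 1 library left out. In sums without these cells it was 0 without the covariate (459 unadjusted), 472 with DESeq2, 311 without the filter and 22 to 171 with 1 library left out. For the interaction it was 6 without the covariate, 65 without the filter and 15 to 81 with 1 library left out. For the Irf8 split it was 1283 unthinned, 33 with DESeq2 and 70 to 133 with 1 library left out. The S phase difference was -259 to 206 CPM with 1 library left out, and it turned positive without knockout 3 (206) and wild-type 1 (200). The G2/M difference, 501 CPM with all 6 libraries, was 61.1 (without wild-type 4) to 956 CPM (without wild-type 1) and 290 CPM in list A.

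Same-numbered libraries correlated in their deviations at 0.474 and 0.740 in granule-gene-high cells and at 0.717, 0.906 and -0.545 over all kept cells. The negative value is that of knockout 3 (list B) and wild-type 3 (list A), while the positive ones come from libraries within list A. Only same-numbered libraries were correlated, so these values cannot tell pairing from a shared barcode list. The main fits did not take the numbers as pairs. With the replicate block the counts were 40 in granule-gene-high cells, with or without the list, and 909 in sums without them. In granule-gene-high cells the block turned B4galt6 (0.17), Notch1 (-0.29) and Car1 (0.73). In that fit each list B library was alone in its block, so the blocks already held the list. The equal counts with and without the list follow from this and say nothing about the list. Only the same-numbered pairs of list A bore on the label difference there.

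Of the named genes' log2 differences, 1454 values kept sign and side of the threshold, 56 passed newly, 5 no longer passed (all Hdc) and 37 turned sign. The replicate block entered these counts both with and without the list, although these are the same fit. Thinning turned B4galt1 (0.096), Irf8 (-0.21), Bst2 (0.17), Kif11 (-0.48), Xbp1 (0.073), Hspa5 (0.21) and Cxcr4 (0.75). Removing doublet scores turned B4galt3 (0.0028) and Car1 (0.81), and list A turned B4galt3 (0.015), B4galt6 (0.20), Notch1 (-0.22) and Car1 (0.72). Mcpt8 was -0.93 without the demand on Camp, Ngp and Ltf and -0.16 with all 7 libraries, and wild-type 3 was in both of these fits. With 1 library left out, the ranges that crossed 0 were B4galt3 -0.16 to 0.047, B4galt6 -0.74 to 0.20, Rab44 -0.25 to 0.10, Notch1 -0.23 to 0.41, Car1 -2.61 to 0.74, Tfrc -0.18 to 0.50, Herpud1 -0.54 to 0.056 and Cxcr2 -1.23 to 0.013. The cause of these turns was not tested.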
